A study of Mus musculus with 18 samples.

Results

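The genes described here encode the microtubules of the hippocampal neuron and the proteins that bind, remodel and walk on them: alpha, beta and gamma tubulins, the classical microtubule-associated proteins (MAPs) with the doublecortin family, end-binding proteins, stathmins, kinesin light chains and kinesins. They were chosen by name, as every gene of the expression table called Tuba, Tubb, Tubg, Kif, Klc, Stmn or Mapre with a number, together with 14 listed MAP and doublecortin genes. This gave 69 of the 12012 genes of the table. The 11 kinesins that work in cell division were kept apart from the other 58 genes: 14 MAPs, 3 alpha, 7 beta and 2 gamma tubulins, 3 end-binding proteins, 4 stathmins, 3 light chains, 13 kinesins that carry cargo and 9 other kinesin-named genes. A further 12 protein-coding mouse genes with a matching name, among them *Tuba1c*, *Tuba8*, *Tubb1* and *Klc3*, had no value in the table and were not analysed here.

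The study asked whether FIBCD1, a receptor that binds glycosaminoglycans of the extracellular matrix, shapes the response of neurons to chondroitin sulphate proteoglycans (CSPGs). Hippocampal cells of *Fibcd1* WT and KO mouse pups at E18.5, of the Fibcd1tm1Lex line on a C57BL/6J background, were plated on a CSPG coating and sequenced as bulk poly-A RNA after a few days in vitro, DIV3 in the study's main text and DIV2 in its appendix. The libraries used here were 4 of *Fibcd1* WT cells on CSPGs (WT CSPG, replicates A to D) and 4 of *Fibcd1* KO cells on CSPGs (KO CSPG, replicates A to D), so both groups share the coating and differ in genotype. The series labels 18 libraries. The uncoated WT and KO libraries and replicate E of WT CSPG have no values in the expression table used and are left aside here. The labels call the cells neurons, the cultures were not described as sorted, and the study describes its replicates as biological, each from a cell preparation of its own. For its mice in general, the study states that it used only littermates, matched for age and sex. Which litters and sexes went into each cultured preparation is not given in the sources used here. The p-values measure the spread between these preparations.

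Microtubules are hollow filaments built from dimers of alpha and beta tubulin. In a young neuron they fill the growing axon and dendrites, where MAPs such as tau and MAP2 stabilise and space them, stathmins hold free dimers back, end-binding proteins track the growing plus ends, and kinesins haul vesicles, mitochondria and RNA along them. Neurons no longer divide, and the kinesins that build the spindle and cut the daughter cells apart are transcribed mainly in dividing cells, from promoters under cell cycle control, although several of them, such as *Kif11* and *Kif23*, are also known from young neurons.

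Some tubulin genes are close copies of one another, which matters for their values. The coding sequences of the beta tubulins *Tubb2a* and *Tubb2b* are identical at 1291 of 1338 bases (96.5%). The last 60 coding bases, which encode the C-terminal tail where tubulin isotypes tend to differ, show how little separates the pair. They are written 5′ to 3′ on the coding (minus) strand with the stop codon, from the GENCODE M21 transcripts on GRCm38, at chr13:34074468-34074527 for *Tubb2a* and chr13:34127471-34127530 for *Tubb2b*. Capitals mark the 3 bases that differ between them.
Tubb2a: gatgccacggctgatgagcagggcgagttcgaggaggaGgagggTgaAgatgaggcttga
Tubb2b: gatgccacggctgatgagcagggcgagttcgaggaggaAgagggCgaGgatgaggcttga

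Of the 50-base windows of the *Tuba1a* transcripts, the length of the authors' reads, only 24.5% occur in no other gene, and for *Tuba1b* this was 24.9%. The value was 50.4% for *Tubb2a*, 58.7% for *Tubb4b*, 60.4% for *Kif3c*, which shares 34.7% with 1110002L01Rik, 63.1% for *Tubb2b* and 64.6% for *Tuba4a*. The other 62 members had at least 70%, and 52 of the 69 had over 95%, among them *Tubb3*, *Tubb5*, *Tubb6*, *Mapt* and *Kif26a*. How reads that fit several genes were counted is not given in the sources used here, so the levels of those 7 genes, and the split between *Tuba1a* and *Tuba1b* or *Tubb2a* and *Tubb2b*, are uncertain.

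Most of the mitotic kinesins share a promoter feature that was not used to select them, although they were set apart for their work in cell division. The cell cycle genes homology region (CHR), TTTGAA, is the element through which the DREAM complex and its relatives keep such genes off outside the dividing phase. RefSeq promoter windows on GRCm38.p6, from 250 bases before to 50 after each gene's start, were at hand for 53 of the 69 members, with 64 windows in all, and for 10 of the 11 mitotic kinesins. Searched on both strands (TTTGAA or TTCAAA), with each motif counted whether or not it overlaps another, the CHR letters were in the promoters of 9 of these 10 (90%), against 6 of 54 promoters of the other members (11.1%) and 17.9% of all 32851 promoters. CCAAT, the NF-Y binding site often found beside a CHR, was in 6 of 10 (60%), against 35.2% of the other members' promoters and 37.4% of all. A match describes the letters and is not by itself a binding site. The 6 windows whose CHR letters lie nearest to the gene start are shown 5′ to 3′ on the gene's strand, at chr9:61946778-61946827 (minus strand), chr11:102925102-102925151 (minus), chr19:34922335-34922384 (plus), chr7:127042418-127042467 (minus), chr19:37376333-37376382 (plus) and chr9:122951032-122951081 (plus). Capitals mark the CHR letters and any CCAAT box, read as ATTGG on the other strand.
Kif23: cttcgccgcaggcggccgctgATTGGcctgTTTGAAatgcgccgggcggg
Kif18b: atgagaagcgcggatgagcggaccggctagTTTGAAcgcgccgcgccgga
Kif20b: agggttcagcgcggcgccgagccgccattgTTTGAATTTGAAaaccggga
Kif22: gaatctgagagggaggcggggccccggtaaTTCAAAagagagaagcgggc
Kif11: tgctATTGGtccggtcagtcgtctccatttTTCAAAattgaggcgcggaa
Kif15: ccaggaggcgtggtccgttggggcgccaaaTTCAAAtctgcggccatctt

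The CHR letters of these 6 genes began at 3, 4 and 8 bases after the start in *Kif23*, *Kif18b* and *Kif20b*, and 17, 19 and 19 bases before it in *Kif22*, *Kif11* and *Kif15*. *Kif20b* carried the letters in tandem. In the other mitotic kinesins with a match, the letters nearest the start began at 20 in *Kif4*, -103 in *Kif2c* and -228 in *Kif14* (minus: bases before the start). The last 2 matches thus lie far from the start.

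Some facts of the whole table bear on the members. The reads behind the table numbered 10099564 to 11174615 in the WT CSPG libraries and 10541445 to 11647202 in the KO CSPG libraries, and no gene of the table had a mean value under 40.68 normalised counts. *Fibcd1* itself was at 54.3, 70.4, 60.1 and 182.4 normalised counts in WT CSPG A to D and at 0.970, 0.932, 7.16 and 4.74 in KO CSPG A to D, which fits the labels. WT CSPG D, the library with the most *Fibcd1*, also had the most RNA of choroid plexus markers, a summed 4295 normalised counts against 250.2 to 1513 in the other WT CSPG libraries and 321.0 to 655.5 in KO CSPG. All 15 neuronal markers were in the table, with summed levels of 43714 to 45513 in WT CSPG and 43726 to 44105 in KO CSPG, while *Neurod2* and *Neurod6* were lower and *Prox1* was higher in KO CSPG past the test. Oligodendrocyte lineage markers, 9 of 10 in the table, summed to 1151 to 1512 in WT CSPG and 1769 to 1966 in KO CSPG, with *Olig1* and *Olig2* higher past the test. Median log2 fold changes were also above 0 for markers of astrocytes (0.09), of microglia (0.13) and of fibroblast, mural and endothelial cells (0.31). None of these passed (limma), and their sums overlapped between the groups, as for astrocytes at 39690 to 48540 in WT CSPG and 46171 to 51189 in KO CSPG. The 4 Y-linked genes were all lower in KO CSPG past the test, with sums of 878.3 to 1092 against 1557 to 1935, and *Xist* was higher (adjusted p = 0.0367, limma, and 0.0530 to 0.112 without any 1 library other than KO CSPG D), so that genotype and the sex mix of the cultures cannot be told apart. In bulk RNA, fewer cells of a type and less RNA per cell cannot be told apart either.

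Levels per kb of gene length put a few genes far above the rest. *Tuba1a*, the main neuronal alpha tubulin, had the highest level, 13162 normalised counts per kb over the 8 libraries, followed by the beta tubulins *Tubb2b* at 11605, *Tubb5* at 8644 and the neuron-specific *Tubb3* at 8269. *Mapt*, which encodes tau, came next at 4890 per kb and was the highest of the MAPs, followed by the stathmin *Stmn3* at 3909. The highest kinesin was *Kif5c*, a heavy chain of the neuronal transport motor kinesin-1, at 2128 per kb. The highest mitotic kinesin was *Kif11*, at 71.3 per kb, and the lowest member of all was *Kif14*, at 4.81 per kb.

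**Figure D1:**
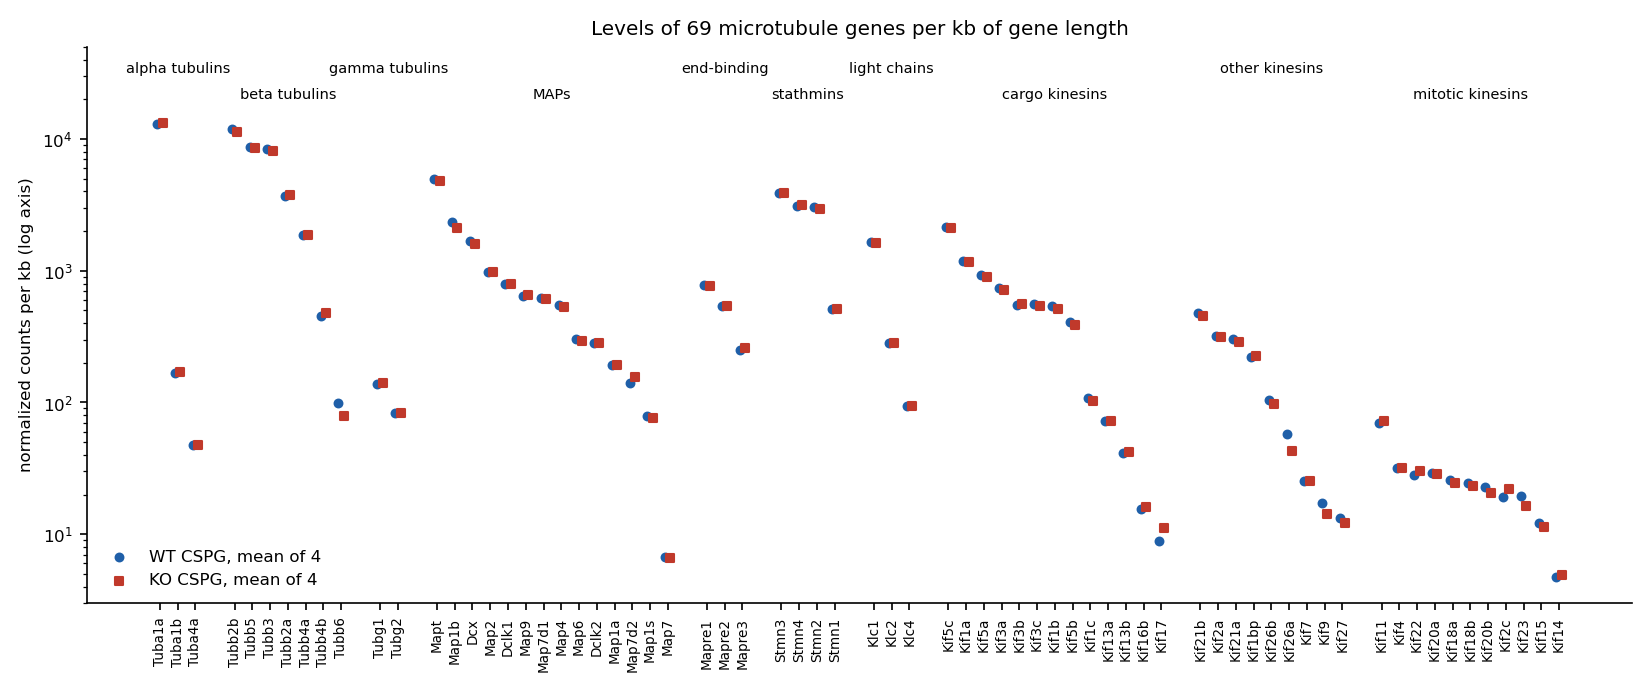
Mean level of each of the 69 genes in WT CSPG (blue circles, 4 libraries) and KO CSPG (red squares, 4 libraries), in normalised counts per kb of gene length on a log axis, ordered within each group by level. The paired symbols nearly coincide for most genes, from Tuba1a around 13162 per kb down to Kif14 around 4.81 per kb. They are further apart for some, such as Kif26a, Tubb6, Kif17, Kif9, Kif23 and Kif2c. The symbols of the 11 mitotic kinesins all lie at or under 72.93 per kb.

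Between KO CSPG and WT CSPG, the RNA of the microtubule genes differed little. Of the 69 genes, 1 passed the test, an adjusted p under 0.05 by limma with Benjamini-Hochberg adjustment over all 12012 genes: *Kif26a*, which was lower in KO CSPG. Among all genes tested, 346 passed, 131 higher and 215 lower, which is 2.88% of those tested. At an unadjusted p under 0.05 the count was 8 of 69 members (11.6%), against 16.2% of all genes. The 4 libraries of each group did not overlap for 7 of the 69 (*Mapt*, *Tubb5*, *Tubb6*, *Kif5a*, *Kif2a*, *Kif26a* and the mitotic *Kif23*), all lower in KO CSPG, and for 9.22% of all genes (621 lower and 487 higher). The members' counts were thus near or below the shares of the table, and are not a result about the members.

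The differences were also narrowly bounded. Of the 58 genes other than mitotic kinesins, 45 (77.6%) had a 95% interval of the log2 fold change that lay wholly within ±0.2, against 51.6% of all genes. Most of the 58 are abundant, and the comparison at like level was closer: among genes with a mean of at least 1000 normalised counts, 35 of 37 members (94.6%) and 90.2% of 2925 genes had such an interval, and 0 of the 37 members but 128 of the 2925 genes passed the test by limma, while 4 of the 37 (10.8%) and 19.8% of the 2925 had an unadjusted p under 0.05. Of the 58 genes, 37 (63.8%) had a log2 fold change below 0, against 49.9% of all genes, and their median was -0.01, beside 0.00 for all genes. Among genes with a mean of at least 1000 normalised counts the shares below 0 were higher for both, 28 of 37 members (75.7%) and 57.9% of the 2925 genes. Upper-quartile scaling, which shifts all genes alike, left 30 of the 58 and 44.0% of all genes below 0.

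**Figure D2:**
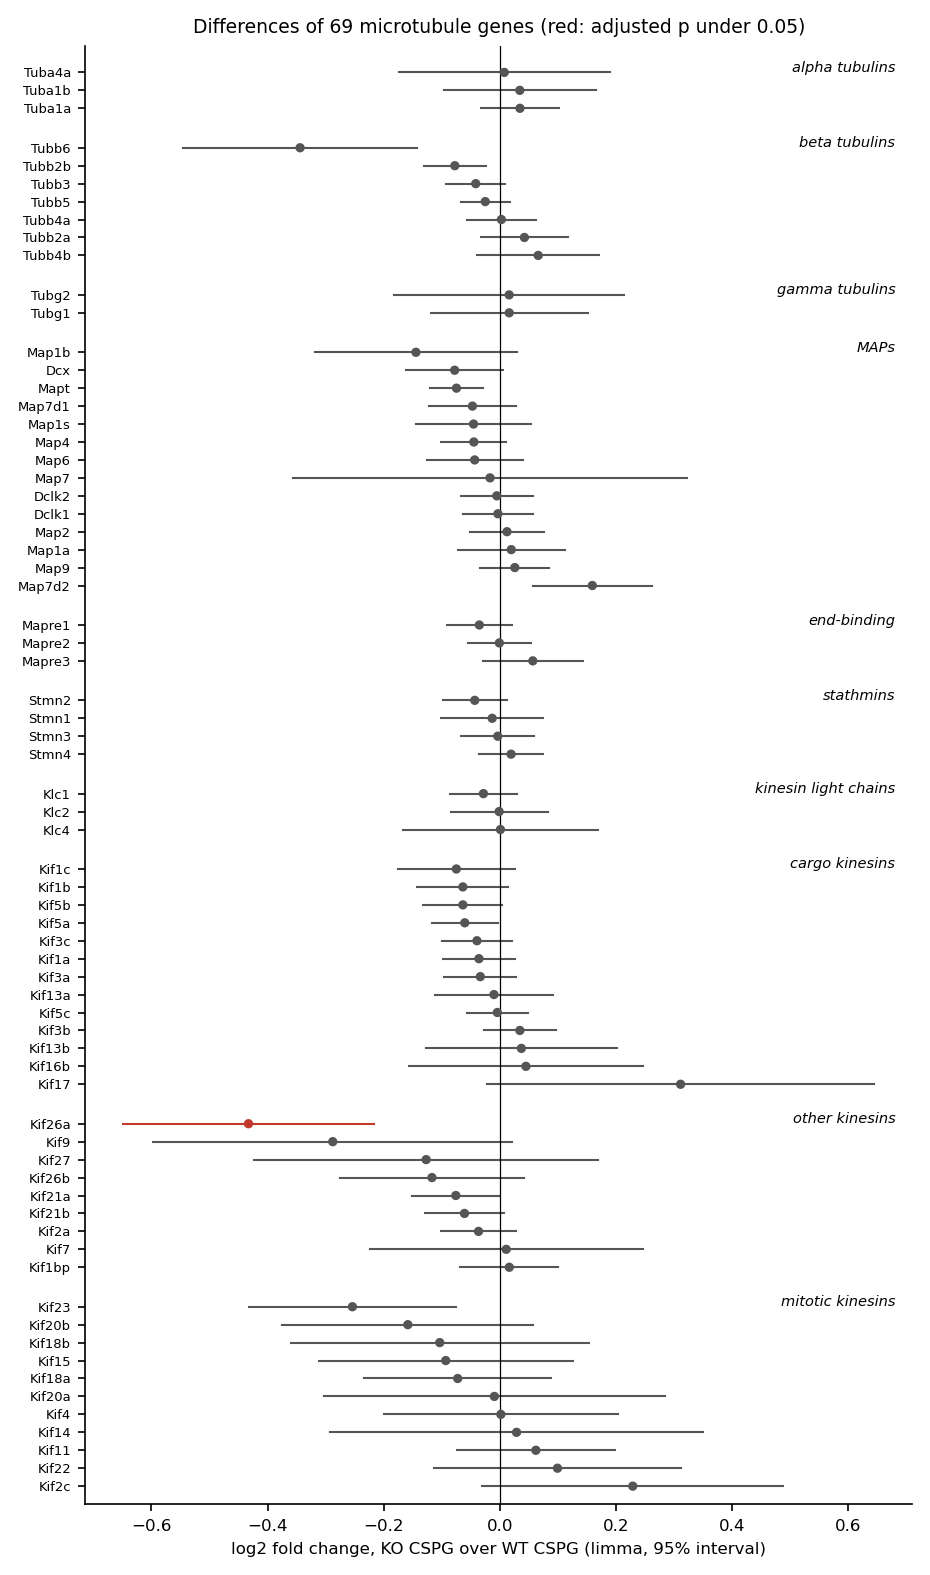
Log2 fold change of each of the 69 genes, KO CSPG over WT CSPG, with its 95% interval from limma (4 libraries a group), ordered by size within each group. Most points lie within 0.1 of 0, intervals are widest for genes of low level such as Kif17, Map7 and the mitotic kinesins, and Kif26a, at -0.43, is the 1 gene drawn in red for an adjusted p under 0.05.

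*Kif26a* encodes an unusual kinesin without the usual ATP-driven motor activity, known for restraining growth factor signalling in enteric neurons. It lies at chr12:112146208-112181747 (GRCm38, plus strand) and was a gene of low to middle level, at 50.4 normalised counts per kb. Its values were 351.1, 389.9, 375.3 and 487.1 normalised counts in WT CSPG A to D and 260.8, 343.1, 288.3 and 291.0 in KO CSPG A to D. Every KO CSPG library was below every WT CSPG library, the gap between KO CSPG B and WT CSPG A was narrow, and WT CSPG D stood above the other WT CSPG libraries. The means were 400.8 ± 59.7 and 295.8 ± 34.4 (SD, n = 4 each), a log2 fold change of -0.43 (SE 0.10, adjusted p = 0.0351, limma). The call depended on which libraries were in the fit. It was kept without WT CSPG A (adjusted p = 0.0152), WT CSPG D (0.0107) or KO CSPG B (0.00621), and was lost without WT CSPG B (0.0823), WT CSPG C (0.0710), KO CSPG A (0.0890), KO CSPG C (0.125) or KO CSPG D (0.0981), while the log2 fold change stayed between -0.51 and -0.34. WT CSPG D, the highest library for *Kif26a*, is also the library with the most choroid plexus RNA. Without it the log2 fold change was -0.34. The part of choroid plexus cells in the difference was not tested. With the summed Y-linked level as a covariate, of whose variance genotype explains 91.2%, the log2 fold change was -1.07 and no longer passed (adjusted p = 0.25).

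The 120 bases just before the annotated start of *Kif26a*, at chr12:112146088-112146207 (GRCm38.p6, plus strand), are shown because it was the 1 member that passed. Capitals mark GC boxes (CCCGCCC, the kind of site bound by SP1, searched on both strands), and the last capital run holds a pair that overlap.
Kif26a: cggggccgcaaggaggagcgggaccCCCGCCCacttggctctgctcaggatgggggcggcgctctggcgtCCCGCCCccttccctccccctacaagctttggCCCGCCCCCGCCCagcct

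A GC box was in 27 of 54 promoters of the members other than mitotic kinesins (50%), in 3 of 10 of the mitotic kinesins (30%) and in 25.6% of all promoters. The *Kif26a* window of 300 bases held no CHR letters.

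**Figure D3:**
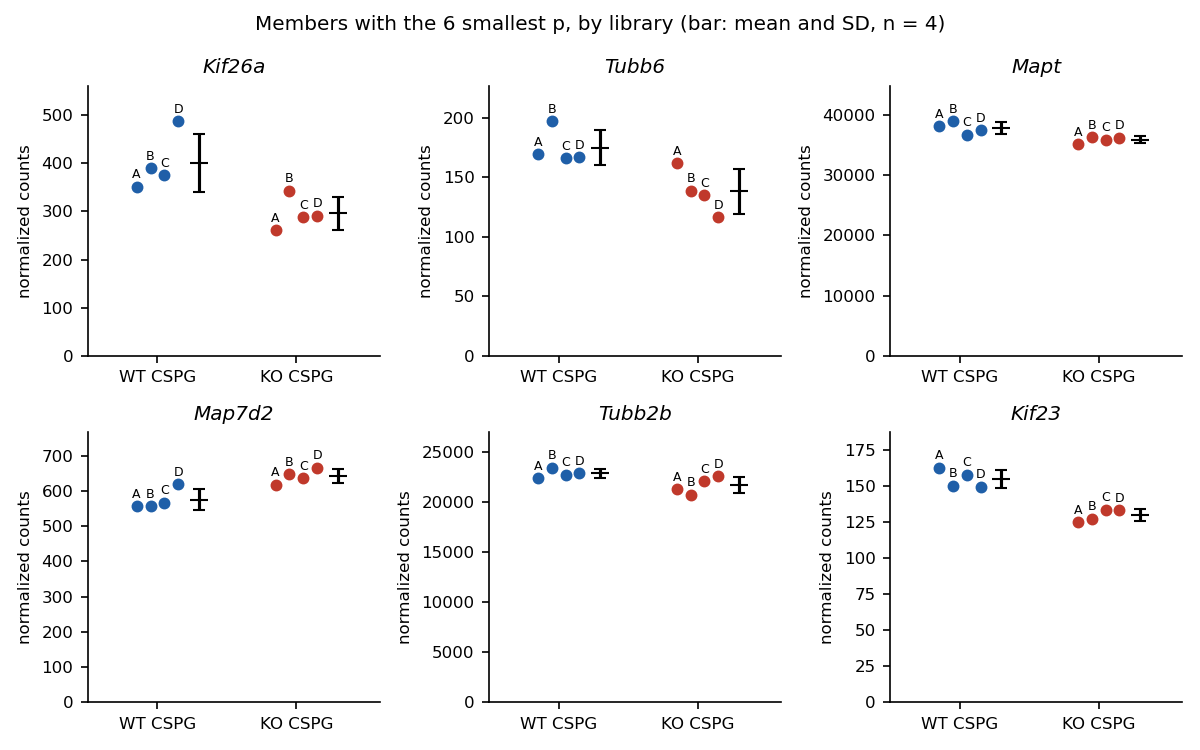
Normalised counts in each library (points, replicate letters above them) of the 6 members with the smallest p, with the mean and SD of 4 libraries beside each group and every axis starting at 0. Kif26a, Tubb6, Mapt and Kif23 are lower in every KO CSPG library than in any WT CSPG library, whereas the groups overlap for Map7d2, which is higher, and Tubb2b, which is lower, in KO CSPG on average.

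Among the tubulins, differences between the groups were small. *Tuba1a* made up almost all of the summed level per kb of the 3 alpha tubulins in the table. Its share was 98.4% ± 0.09 in WT CSPG and 98.4% ± 0.07 in KO CSPG (SD, n = 4), with the caveat on shared sequence given above. The sum lacks *Tuba8* and *Tuba1c*, which had no value, and *Tuba1c* shares 46.9% of the *Tuba1a* windows. The values of *Tuba1a* were 21401, 21597, 20344 and 22312 normalised counts in WT CSPG A to D and 22523, 20587, 21783 and 22877 in KO CSPG A to D. The groups overlapped widely, with a log2 fold change of 0.03 (SE 0.03, adjusted p = 0.663, limma), with a 95% interval of -0.03 to 0.10. *Tuba1b* and *Tuba4a*, at 169.4 and 47.6 normalised counts per kb, had log2 fold changes of 0.03 and 0.01, and none of the 3 alpha tubulins passed, with a median of 0.03.

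Among the 7 beta tubulins 0 passed by limma, 2 had an unadjusted p under 0.05 (*Tubb6* and *Tubb2b*), and the median log2 fold change was -0.03 with 4 below 0. *Tubb2b*, an early neuronal isotype of migrating and growing cells, was at 22431, 23458, 22765 and 22938 normalised counts in WT CSPG and 21337, 20752, 22130 and 22622 in KO CSPG. The highest KO CSPG library, D, reached into the WT CSPG range. The log2 fold change was -0.08 (SE 0.03, adjusted p = 0.111, limma), and as a share of the summed beta tubulin level per kb *Tubb2b* made up 33.8% to 34.1% in WT CSPG and 32.45% to 33.5% in KO CSPG. It passed when the trend of each library with gene length was removed (-0.10, adjusted p = 0.0204).

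*Tubb6*, the isotype of low level in neurons and of wider use in other cells, showed the largest difference of any tubulin. Its values were 169.3, 197.1, 165.8 and 167.1 normalised counts in WT CSPG A to D and 161.9, 138.9, 134.9 and 116.6 in KO CSPG A to D. The groups did not overlap, although KO CSPG A lay just under the lowest WT CSPG library. Its log2 fold change of -0.34 (SE 0.10) missed the threshold (adjusted p = 0.0564, limma). *Tubb6* passed without WT CSPG D (adjusted p = 0.0459), without KO CSPG A (0.0297), with the gene length trend removed (0.0330) and with the replicate letter as a block (0.0462). It made up 0.283% ± 0.02 of beta tubulin per kb in WT CSPG and 0.230% ± 0.03 in KO CSPG, so that its difference hardly touched the total.

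*Tubb3*, the beta tubulin used as a marker of neurons, was at 15464, 16140, 15559 and 15509 normalised counts in WT CSPG and 14948, 14943, 15547 and 15464 in KO CSPG. KO CSPG C and D lay at the level of the WT CSPG libraries, and A and B lay below it. The log2 fold change was -0.04 (SE 0.02, adjusted p = 0.430, limma), with a 95% interval of -0.09 to 0.01. *Tubb5*, the broadly used isotype, was at 28798 to 29205 in WT CSPG and 28443 to 28766 in KO CSPG, which did not overlap, yet the log2 fold change was only -0.03 (SE 0.02, adjusted p = 0.613, limma). *Tubb2a*, *Tubb4a* and *Tubb4b* had log2 fold changes of 0.04, 0.00 and 0.07. The summed beta tubulin level was 35127 ± 556 normalised counts per kb in WT CSPG and 34233 ± 826 in KO CSPG (SD, n = 4). The gamma tubulins *Tubg1* and *Tubg2*, which nucleate microtubules, both had log2 fold changes of 0.02.

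**Figure D4:**
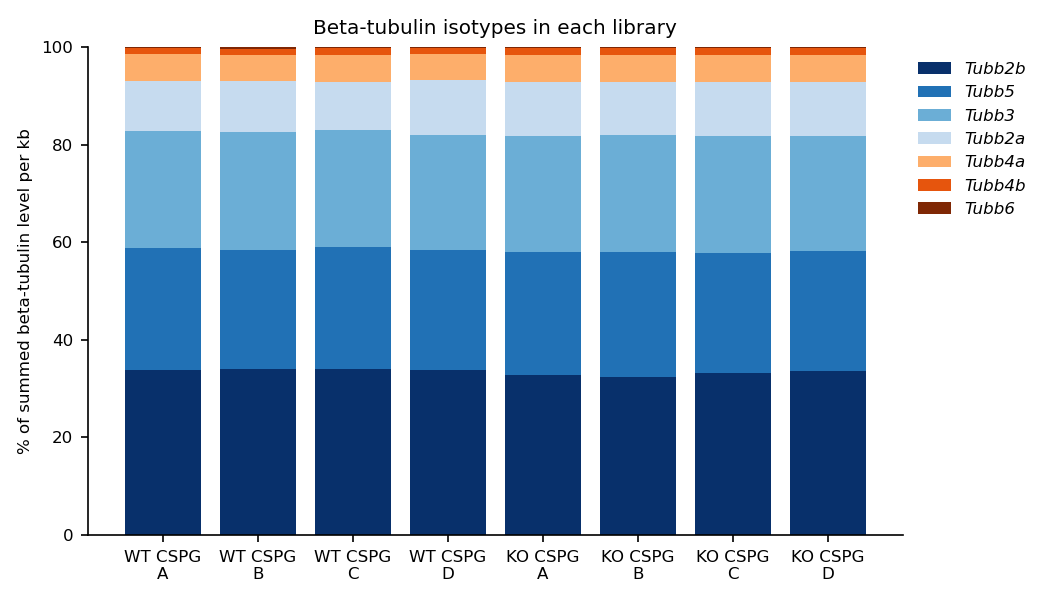
Share of each of the 7 beta tubulins in the summed beta tubulin level per kb (percent, y axis), for each of the 8 libraries. Tubb2b, Tubb5, Tubb3 and Tubb2a make up most of every bar in the same order, and the shares of Tubb2b lie between 32.45% and 34.1%.

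None of the 14 MAPs passed the test (limma). Of the 14, 10 had a log2 fold change below 0, the median was -0.03, and 11 had a 95% interval within ±0.2. Tau, encoded by *Mapt*, binds along the axonal lattice. *Mapt* was at 38112, 38930, 36674 and 37408 normalised counts in WT CSPG A to D and 35094, 36296, 35875 and 36224 in KO CSPG A to D. Every KO CSPG library lay below every WT CSPG library, by a small margin. This gave a log2 fold change of -0.07 (SE 0.02, adjusted p = 0.0723, limma), with a 95% interval of -0.12 to -0.03. It was the smallest p of any abundant member.

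*Map7d2*, an X-linked gene whose product recruits kinesin-1 to microtubules, differed in the other direction. It was at 556.9, 556.6, 566.4 and 619.6 normalised counts in WT CSPG and 617.7, 648.0, 635.9 and 665.5 in KO CSPG. The groups overlapped only through WT CSPG D, which lay above KO CSPG A. The log2 fold change was 0.16 (SE 0.05, adjusted p = 0.0849, limma), and without WT CSPG D it was 0.20 and passed (adjusted p = 0.0232). The gene is 1 of 3 members on chromosome X, with *Dcx* and *Kif4*, and the Y-linked and *Xist* levels of the 2 groups differ as given above.

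*Map1b*, the MAP of growing axons, had the largest SE of the members with a mean of at least 1000 normalised counts. It was at 27131, 31131, 25019 and 28326 normalised counts in WT CSPG and 24497, 26781, 23892 and 25591 in KO CSPG. Libraries of the 2 groups interleaved, and replicate B was the highest and replicate C the lowest in both. The log2 fold change was -0.14 (SE 0.07, adjusted p = 0.401, limma), and -0.09 without WT CSPG B. *Dcx*, the doublecortin of migrating neurons, was at 19972 to 22087 in WT CSPG and 18870 to 21528 in KO CSPG, with replicate B highest and C lowest in both groups, and had a log2 fold change of -0.08 (SE 0.04, adjusted p = 0.351, limma). Fitted with the replicate letter as a block, both passed (adjusted p = 0.000796 for *Map1b* and 0.0488 for *Dcx*, limma). The letters did not mark shared batches in the labels. Over all genes, deviations from the group means correlated at -0.07, 0.10, 0.27 and -0.01 between libraries of letter A to D. Whether the letters pair the libraries was not tested beyond this.

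*Map2*, the MAP of dendrites and the study's neuronal stain, was at 15739, 16815, 15208 and 16625 normalised counts in WT CSPG and 16254, 16876, 15639 and 16143 in KO CSPG. The groups covered the same range. For *Map2* the log2 fold change was 0.01 (SE 0.03), and its 95% interval of -0.05 to 0.08 leaves room only for small changes in either direction. The doublecortin-like kinases *Dclk1* and *Dclk2* had log2 fold changes of 0.00 (-0.0032) and -0.01. For *Map1a*, *Map1s*, *Map4*, *Map6*, *Map7*, *Map7d1* and *Map9* the values ran from -0.05 to 0.03, and the interval was wide only for *Map7*, -0.36 to 0.32, which at 6.63 normalised counts per kb was the lowest of the MAPs.

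End-binding proteins act on growing ends and stathmins on free tubulin. All 3 and all 4 of these genes had a 95% interval within ±0.2, and none passed the test (limma). *Mapre1*, the plus-end tracker EB1, had a log2 fold change of -0.04 (SE 0.03), *Mapre2* one of 0.00 (-0.0007, SE 0.03), and *Mapre3*, the neuronal EB3, one of 0.06 (SE 0.04, adjusted p = 0.551, limma). Their median was 0.00 (-0.0007). *Stmn2*, the growth cone stathmin SCG10, was at 17449, 17382, 16542 and 16600 normalised counts in WT CSPG and 16756, 15792, 16389 and 17043 in KO CSPG. The groups overlapped. Its log2 fold change was -0.04 (SE 0.03, adjusted p = 0.463, limma). *Stmn1*, *Stmn3* and *Stmn4* had log2 fold changes of -0.01, 0.00 (-0.0035) and 0.02, and the summed stathmin level was 10582 ± 161 normalised counts per kb in WT CSPG and 10524 ± 303 in KO CSPG (SD, n = 4).

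Kinesins that carry cargo run along axons and dendrites. None of the 13 cargo kinesins and 3 light chains passed (limma), 9 of the 13 cargo kinesins were below 0 with a median of -0.03 (0.00, or -0.0046, without WT CSPG B), and 1, *Kif5a*, had an unadjusted p under 0.05. *Kif5a*, one of the kinesin-1 heavy chains, was at 5824, 5994, 5828 and 5794 normalised counts in WT CSPG and 5543, 5688, 5469 and 5783 in KO CSPG. The groups did not overlap, but KO CSPG D lay next to the lowest WT CSPG library, and the log2 fold change was -0.06 (SE 0.03, adjusted p = 0.277, limma). *Kif5c*, the most abundant heavy chain per kb, was at 14741 to 15587 in WT CSPG and 14864 to 15582 in KO CSPG, and its log2 fold change was 0.00 (-0.0042, SE 0.03). *Kif5b*, the heavy chain used in all cells, had a log2 fold change of -0.06 (SE 0.03, adjusted p = 0.353, limma).

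*Kif1a*, the motor of synaptic vesicle precursors, was at 10658 to 11899 normalised counts in WT CSPG and 10642 to 11249 in KO CSPG, with a log2 fold change of -0.04 (SE 0.03). The kinesin-2 genes *Kif3a*, *Kif3b* and *Kif3c* had log2 fold changes of -0.03, 0.03 and -0.04. *Kif17*, the motor of NMDA receptor transport in dendrites, had the largest log2 fold change of the group, 0.31, and was also its lowest member, at 10.02 normalised counts per kb. It was at 41.8, 34.6, 49.5 and 37.7 normalised counts in WT CSPG and 53.3, 41.0, 57.2 and 52.1 in KO CSPG. The groups overlapped, and the interval of -0.02 to 0.65 was among the widest of the members (SE 0.16, adjusted p = 0.353, limma). Of the light chains, which tie kinesin-1 to its cargo, *Klc1* had a log2 fold change of -0.03, *Klc2* one of 0.00 (-0.0011) and *Klc4* one of 0.00 (0.0011).

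The 9 other kinesin-named genes were the group with the lowest median, -0.08, with 7 below 0 and *Kif26a* as the 1 that passed. *Kif21a* and *Kif21b*, which slow microtubule growth, had log2 fold changes of -0.08 (SE 0.04, adjusted p = 0.300, limma) and -0.06 (SE 0.03, adjusted p = 0.375). *Kif2a*, a motor that takes microtubule ends apart and prunes axon branches, was at 2333, 2217, 2232 and 2236 normalised counts in WT CSPG and 2210, 2209, 2191 and 2180 in KO CSPG. The groups did not overlap but nearly touched, at a log2 fold change of -0.04 (SE 0.03, adjusted p = 0.627, limma). *Kif26b*, the close relative of *Kif26a*, had a log2 fold change of -0.12 (SE 0.07, adjusted p = 0.484, limma). *Kif7*, *Kif9* and *Kif27*, which belong to cilia, had values of 0.01, -0.29 and -0.13 at levels of 12.7 to 25.4 normalised counts per kb, and none passed. *Kif1bp*, which encodes a kinesin-binding protein rather than a motor, was at 0.02.

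The 11 mitotic kinesins were measured far less precisely. Their mean values ran from 49.8 to 343.6 normalised counts, their log2 fold changes from -0.25 to 0.23 with a median of -0.01, and 6 of 11 were below 0. The median moved between -0.10 (without WT CSPG D) and 0.04 (without KO CSPG D) when 1 library was left out, and was -0.21 with the Y-linked covariate. None of the 11 passed the test (limma), 1 had an unadjusted p under 0.05, and only 1, *Kif11*, had a 95% interval within ±0.2. Other genes of the same range of level were alike in this respect: 16.04% of 4901 had such an interval, and 78 passed. Summed over the 11 genes, the values were 1635, 1632, 1771 and 1563 in WT CSPG A to D and 1624, 1759, 1553 and 1561 in KO CSPG A to D, which covered the same range.

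*Kif23*, the motor subunit of the centralspindlin complex that acts in cytokinesis, had the smallest p of the 11. Its values were 163.0, 150.5, 158.1 and 149.8 normalised counts in WT CSPG A to D and 125.1, 127.7, 133.9 and 133.7 in KO CSPG A to D. All KO CSPG libraries lay below all WT CSPG libraries, and each group was tight. At a log2 fold change of -0.25 (SE 0.09, adjusted p = 0.118, limma) *Kif23* missed the threshold, and it passed when the prior variance of the fit was given no trend with level (adjusted p = 0.0455). *Kif2c*, a depolymerase at centromeres, lay at the other end with 0.23 (SE 0.13, adjusted p = 0.386, limma). Its values were 73.1, 83.4, 104.7 and 70.3 normalised counts in WT CSPG and 91.2, 88.6, 105.3 and 100.5 in KO CSPG. The groups overlapped through WT CSPG C.

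*Kif11*, the motor that pushes spindle poles apart, was at 320.8, 342.2, 352.0 and 328.1 normalised counts in WT CSPG and 365.6, 384.2, 312.8 and 343.2 in KO CSPG. The KO CSPG libraries enclosed the whole WT CSPG range. Its log2 fold change was 0.06 (SE 0.07, adjusted p = 0.718, limma). The chromosome-arm motors *Kif4* and *Kif22* had log2 fold changes of 0.00 (0.0019) and 0.10. *Kif18a* and *Kif18b*, which align chromosomes, had values of -0.07 and -0.10, *Kif20a* and *Kif20b*, which act at the midzone, -0.01 and -0.16, and *Kif14* and *Kif15* had 0.03 and -0.09.

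Other RNAs of dividing cells were counted beside these kinesins. All 12 markers of proliferating cells were in the table and 0 passed by limma, with summed levels of 3396 to 3577 normalised counts in WT CSPG and 3416 to 3635 in KO CSPG. Of 21 further spindle genes, some of them on both lists, 20 were in the table and 0 passed, with sums of 4734 to 4967 and 4808 to 4933. The sums of the oligodendrocyte lineage markers, by contrast, did not overlap between the groups, as given above, with 2 of 9 markers past the test. The part of those cells in the mitotic kinesin values was not tested.

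**Figure D5:**
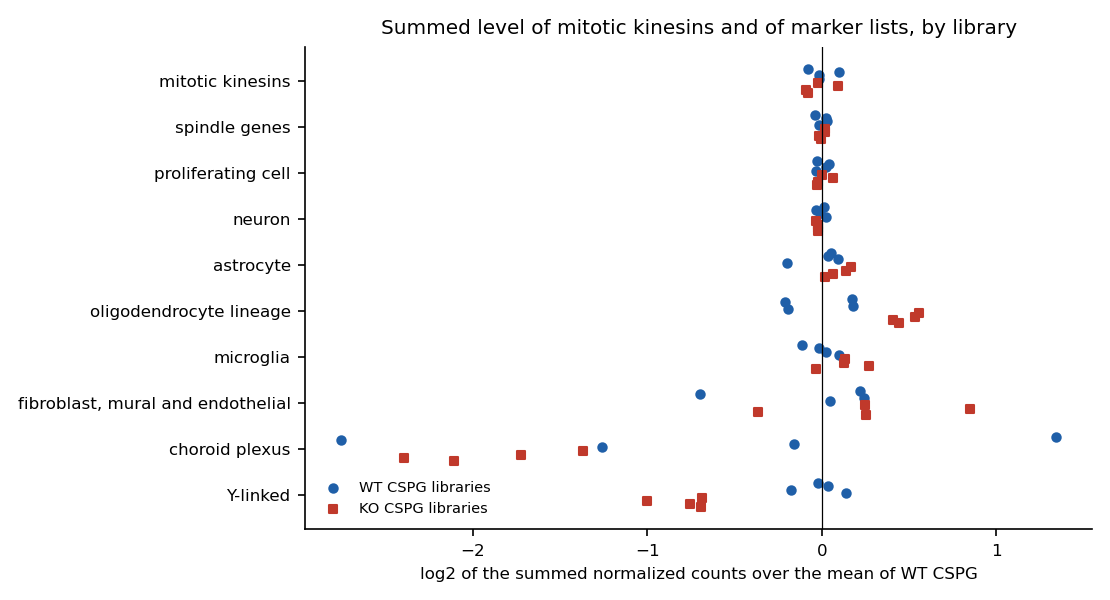
Summed normalised counts of the 11 mitotic kinesins, of the spindle genes, of cell type marker lists and of the 4 Y-linked genes in each library, as log2 of the ratio to the WT CSPG mean (blue circles WT CSPG, red squares KO CSPG, 4 libraries each). Mitotic kinesins, spindle genes and proliferating cell markers lie close to 0 in all 8 libraries, whereas oligodendrocyte lineage sums are higher, and Y-linked sums lower, in every KO CSPG library, and choroid plexus sums spread most.

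The wider machinery around these genes was looked at through 9 lists of 138 genes in all, of which 130 were in the table. Of the 130, 2 were higher and 3 were lower in KO CSPG past the test, a count near the 2.88% of all genes and so no result about the lists, and the median log2 fold change was -0.01. None of the 5 passed with no trend of the prior variance, where 80 genes of the whole table did. None passed with the Y-linked covariate either, under which 2 genes of the whole table passed and *Fibcd1* itself did not (adjusted p = 0.810, limma). Genotype explains 91.2% of the variance of that covariate, so it cannot decide these calls. *Hook1*, an adaptor that links dynein to its cargo, rose in KO CSPG from 515.1, 454.8, 459.7 and 537.1 normalised counts to 570.1, 576.2, 580.7 and 608.6, a log2 fold change of 0.25 (SE 0.06, adjusted p = 0.0118, limma). Every KO CSPG library was above every WT CSPG library, and the call was lost without WT CSPG C (adjusted p = 0.0555). *Ttll7*, a polyglutamylase that adds glutamate chains to the tail of beta tubulin, rose from 604.0, 668.2, 649.8 and 612.5 to 710.7, 801.0, 702.3 and 761.3, a log2 fold change of 0.23 (SE 0.05, adjusted p = 0.0108, limma). It was the 1 of 17 tubulin-modifying enzymes that passed, the call was lost without KO CSPG B (adjusted p = 0.0508), and the log2 fold change was -0.10 with the Y-linked covariate (adjusted p = 0.940).

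The 3 genes that were lower belong to the list of 21 proteins of plus and minus ends, and whether that list differs from others was not tested. *Nav3*, one of the neuron navigators that ride on growing ends, was at 816.1, 925.9, 804.0 and 862.1 normalised counts in WT CSPG and 756.3, 778.6, 693.1 and 722.4 in KO CSPG, a log2 fold change of -0.21 (SE 0.05, adjusted p = 0.0204, limma). Its relative *Nav2* was at 1257, 1376, 1288 and 1278 in WT CSPG and 1142, 1178, 1142 and 1204 in KO CSPG, with -0.16 (SE 0.04, adjusted p = 0.0271, limma). *Clip3*, a linker protein of the CLIP family, was at 6237 to 6702 in WT CSPG and 6020 to 6118 in KO CSPG, with -0.11 (SE 0.03, adjusted p = 0.0314, limma). For all 3 the groups did not overlap. The call of *Nav3* was lost without WT CSPG B, KO CSPG C or KO CSPG D (adjusted p = 0.0600 to 0.0965, limma). That of *Nav2* was lost without WT CSPG B, WT CSPG C, KO CSPG A or KO CSPG C (0.0584 to 0.105), and with the gene length trend removed (0.0604). *Clip3* kept its call without WT CSPG D and lost it without any of the other 7 (0.0548 to 0.114), and with upper-quartile scaling (0.0581). None of the 18 dynein and dynactin genes, 7 folding cofactors, 7 severing enzymes, 17 genes of the gamma-tubulin ring and augmin, 12 kinesin partners or 20 spindle genes passed, and their medians lay between -0.01 and 0.01.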

How the data were processed

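The authors made poly-A libraries, read 50 bases from 1 end, had the reads aligned to mm10 (per the labels) and used DESeq2 on Galaxy. The aligner and counting program are not given in the sources used here. The authors deposited a normalised signal per gene, its reads over the size factor of the library. The deposited values of 8 libraries were used and 0 per-sample columns were left unused. The authors' own fold changes, Wald statistics, p-values and gene calls in the same table were not used. Values were tested as log2(value + 1) with limma 3.58.1 in R 4.3.3 (prior variance with a trend, robust), across all 12012 genes, with Benjamini-Hochberg adjustment and genotype as the only term. The code was tested on simulated data. Fold changes are on the log2(value + 1) scale, which understates those of low genes. Genes of low level were left out of the table before deposit.

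The members, lists and tests were chosen with earlier results of these data known. Genes were named if they passed, were among the 3 highest per kb or had the largest log2 fold change of their group, or were on a short list of well-known members. Members outside this rule, such as *Kif5b* and *Kif26b*, are also described, and *Kif2c* and *Tubb2a* were described after their values were seen. The tally of single genes under the alternatives covers only the 43 named genes. Sequences and 50-base windows came from RefSeq GRCm38.p6 promoters and GENCODE M21 transcripts. Replicate letters occur in both groups. The correlation of deviations from the group means between libraries of the same letter was -0.07, 0.10, 0.27 and -0.01 for A to D. Libraries of unlike letters were not compared in this way, so these values cannot decide whether the letters pair the libraries. The main fit took the libraries as unpaired. Alternatives covered the pseudocount, filters, scaling, the gene length trend, the prior variance, the replicate block, a Y-linked covariate and leaving out each library.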

Additional observations from a re-analysis of the deposited data

Results flagged for a closer look

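In 6 of the 86 groups of 4 libraries tested, 1 library stood so far from the other 3 that its gap exceeded the limit of Dixon's test. Chance gives about 1 in 20 groups, or 4.3 of 86. *Tubb6* was at 197.1 normalised counts in WT CSPG B against 165.8 to 169.3 in the other WT CSPG libraries. *Tubb3* was at 16140 in the same library against 15464 to 15559, and *Kif5a* was at 5994 there against 5794 to 5828. *Map7d2* was at 619.6 in WT CSPG D against 556.6 to 566.4, and *Kif2a* was at 2333 in WT CSPG A against 2217 to 2236. *Fibcd1* was at 182.4 in WT CSPG D against 54.3 to 70.4. All 6 were high values in WT CSPG libraries.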

How the results depend on the processing

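Among the 58 genes other than mitotic kinesins, the count that passed was 1 and became 3 with the gene length trend removed (*Kif26a*, *Tubb2b*, *Tubb6*), 0 with no trend of the prior variance (adjusted p of *Kif26a* 0.149, limma), 0 with the Y-linked covariate, under which 2 genes of the whole table passed, and 0 to 3 without 1 library, the 3 without WT CSPG D (*Kif26a*, *Map7d2*, *Tubb6*), where 576 genes of the table passed. Among the mitotic kinesins the count was 0 and became 1 (*Kif23*) with no trend of the prior variance and stayed 0 without each library in turn. With the replicate block, 4 of the 58 passed (*Dcx*, *Kif26a* with adjusted p = 0.00218, *Map1b*, *Tubb6*), 0 of the 11 mitotic kinesins and 429 genes of the table. Whether libraries of the same letter share a litter or batch is not given in the sources used here, so the block fit cannot be preferred or set aside. Among the other named genes the block ended only the call of *Xist* (adjusted p = 0.0711, limma). Pseudocounts, filters, the prior that is not robust and upper-quartile scaling kept both counts. For the 43 named genes, 756 of 810 values under 19 alternatives kept their side of the threshold, 9 newly passed and 44 no longer passed. The sign of the log2 fold change differed from the main fit in 53 of the 810 values. Of these, 1 was in a gene with a main log2 fold change beyond 0.1 in either direction. This was *Ttll7*, which passed in the main fit and changed to -0.10 (-0.0992) with the Y-linked covariate. Of 170 medians of gene groups, 11 moved by more than 1 SD between replicates. The 2 count models on reads that were planned as alternatives, edgeR and DESeq2, were not run. How the results depend on a count model was therefore not tested, and every test used the normalised values as deposited. The causes were not tested. The median SE was 0.10 for the mitotic kinesins and 0.04 for the other members.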
